A study of Homo sapiens with 4 samples.

Results

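The type I interferon response genes followed here are 38 transcripts that cells are known to induce when interferon alpha or beta binds its receptor. They were chosen by gene name, with no measured value in the rule, but with earlier results of these data known. Each was read by adding the estimated counts and the TPM (a level per length of transcript) of all its transcripts. All 38 had transcripts among the 35585 named genes of the tables, and 36 of them passed the filter on low counts that left 15378 genes for testing. CMPK2 and CXCL10 did not pass it.

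The RNA came from iMGL, microglia-like cells grown out of WTC11, an established line of human induced pluripotent stem cells. Libraries labelled WT (n = 2) are from control cells, and libraries labelled S1KO (n = 2) are from cells edited at INPP5D, the gene of the inositol 5-phosphatase SHIP1. The design text speaks of 2 clones for each genotype, and asks whether cells without SHIP1 still become microglia. No label names an interferon or any other stimulus, and no label ties a replicate number to a clone or to a separate culture, so every p-value below measures the spread between these 4 libraries, which may be technical. In RNA from whole cultures, fewer cells of a type and less RNA per cell cannot be told apart.

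As background, type I interferons are secreted when a cell senses foreign or misplaced nucleic acid. They bind the receptor pair IFNAR1 and IFNAR2, whose kinases JAK1 and TYK2 pass the signal on by phosphorylation. STAT2 and IRF9 then act in the complex ISGF3, which binds a short promoter element, the interferon-stimulated response element, and turns on antiviral proteins, sensors and the pathway's own components. Microglia are known to carry a low standing level of this programme and to raise it in ageing, infection and neurodegeneration.

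The labels were checked first at INPP5D (chromosome 2, 233059967 to 233207903 in GRCh38, plus strand). Its level, in CPM (counts set against a library total scaled by TMM), was 356 in WT 1, 441 in WT 2, 81.0 in S1KO 1 and 97.6 in S1KO 2, and it fell by 2.16 on the log2 scale (SE 0.21, edgeR quasi-likelihood test, Benjamini-Hochberg adjusted p = 0.0184). With S1KO 1 left out INPP5D was at -2.04 and with S1KO 2 left out at -2.31, each from a fit with a lone S1KO library. Neither fit called any gene, so the lost call there is not particular to INPP5D. Total estimated counts were 21516813 to 25927881 per library. Mitochondrially encoded transcripts took 14.2% and 18.9% of them in the WT libraries, against 52.3% and 39.2% in S1KO, which left 9392616 and 12990887 counts for the other genes in S1KO and 18193785 and 20706756 in WT. WT 1 held 10 of 10 mesenchymal markers above 3 counts, with a summed level of 3514 CPM, against 7 of 10 and 10.2 to 29.1 CPM in each of the other libraries. COL1A1 alone was at 2709 CPM in WT 1, LUM was at 0 in WT 2 and S1KO 1, COL3A1 at 0 in WT 2 and POSTN at 0 in S1KO 2. All 18 microglia and macrophage markers were above 3 counts in each library, with summed levels of 5999 and 5904 CPM in WT and 3866 and 4063 CPM in S1KO. The log2 difference of S1KO from WT was below 0 for 13 of these 18 and above 0 for 5; edgeR called 1, P2RY12 (adjusted p = 0.048), and DESeq2 called 8, all lower. Pluripotency markers, 6 genes, summed to 6.29 and 7.41 CPM in WT and to 16.8 and 16.6 CPM in S1KO. All 5 that could be tested were higher in each S1KO library than in either WT library, with a median log2 difference of 1.297; edgeR called 0 of them, and DESeq2 called DPPA4 (adjusted p = 0.011). The part of these differences in the results below was not tested.

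The promoters of the list are shown as a description of their sequences. RefSeq (GRCh38.p14) gave a window of 250 bases before to 50 bases after the start for 30 of the 38 members, and none for IRF7, USP18, OAS2, OASL, IFIT2, IFITM2, MX2 and TRIM22. The letters GAAA, any 2 bases, GAAA, a core of the interferon-stimulated response element, were found on either strand in 22 of the 30 (73.3%), against 4.38% of 27305 genes with such a window. The letters TTC, any 3 bases, GAA, an element of interferon gamma responses, were in 7 of the 30 (23.3%), against 9.38% of genes; the 2 motifs were searched separately and may overlap. In the 150 bases before the start printed here, capitals mark the first of these motifs or its reverse complement (TTTC, any 2 bases, TTTC), and STAT2 is given as a member without them:
ISG15: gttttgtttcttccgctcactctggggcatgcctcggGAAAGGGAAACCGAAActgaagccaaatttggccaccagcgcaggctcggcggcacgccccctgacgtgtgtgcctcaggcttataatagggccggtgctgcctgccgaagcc
IFI6: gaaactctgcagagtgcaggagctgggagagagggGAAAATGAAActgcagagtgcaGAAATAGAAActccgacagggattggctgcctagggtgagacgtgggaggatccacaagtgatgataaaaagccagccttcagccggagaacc
IFIT1: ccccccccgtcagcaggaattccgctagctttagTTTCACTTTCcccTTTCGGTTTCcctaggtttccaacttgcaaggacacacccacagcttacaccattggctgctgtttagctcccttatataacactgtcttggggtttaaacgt
IFIT3: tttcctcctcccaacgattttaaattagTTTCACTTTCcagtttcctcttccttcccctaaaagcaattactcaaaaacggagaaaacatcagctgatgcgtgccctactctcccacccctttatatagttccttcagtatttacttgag
IFI44L: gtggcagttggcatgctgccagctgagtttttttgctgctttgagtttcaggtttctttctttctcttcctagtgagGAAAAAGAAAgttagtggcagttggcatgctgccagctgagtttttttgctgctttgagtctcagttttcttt
EPSTI1: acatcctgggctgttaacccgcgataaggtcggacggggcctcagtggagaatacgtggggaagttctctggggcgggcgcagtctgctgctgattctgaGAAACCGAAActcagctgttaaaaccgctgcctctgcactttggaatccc
IFITM1: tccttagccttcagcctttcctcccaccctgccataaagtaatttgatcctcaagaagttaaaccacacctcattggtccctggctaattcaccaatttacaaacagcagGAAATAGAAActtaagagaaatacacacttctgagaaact
IFITM3: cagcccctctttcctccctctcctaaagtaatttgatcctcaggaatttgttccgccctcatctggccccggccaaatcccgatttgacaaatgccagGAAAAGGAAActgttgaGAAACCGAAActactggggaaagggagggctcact
BST2: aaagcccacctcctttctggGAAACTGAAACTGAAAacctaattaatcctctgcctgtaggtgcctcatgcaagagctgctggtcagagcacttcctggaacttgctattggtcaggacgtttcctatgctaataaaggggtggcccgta
STAT2: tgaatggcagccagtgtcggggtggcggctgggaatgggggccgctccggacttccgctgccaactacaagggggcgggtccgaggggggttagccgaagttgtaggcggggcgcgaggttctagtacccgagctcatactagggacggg
These windows lie at chr1:1013347-1013496 (plus strand) for ISG15, chr1:27672193-27672342 (minus strand) for IFI6, chr10:89392473-89392622 (plus strand) for IFIT1, chr10:89327847-89327996 (plus strand) for IFIT3, chr1:78620298-78620447 (plus strand) for IFI44L, chr13:42992242-42992391 (minus strand) for EPSTI1, chr11:313890-314039 (plus strand) for IFITM1, chr11:320861-321010 (minus strand) for IFITM3, chr19:17405631-17405780 (minus strand) for BST2 and chr12:56360108-56360257 (minus strand) for STAT2. ISG15, IFI6, IFIT1, IFITM3 and BST2 each hold 2 matches in the stretch shown, and in ISG15 and BST2 the matches overlap. A match is a description of the letters and not evidence of binding. Among tested members with the letters, 17 of 21 had their highest level in WT 2, and the median log2 difference of WT 2 from WT 1 was 1.86. Among those with a window but no match, 4 of 7 were highest in WT 2 and the median was 0.71. Over all genes tested, 27.1% were highest in WT 2. A member counted as having the letters if any of its windows held them. MX1 (41425989 to 41426288), PARP9 (122564735 to 122565034) and RSAD2 (6865635 to 6865934) each also have a window without them. This MX1 window holds the annotated start of its protein-coding transcript MX1-202, at 41426167. Any link of the letters to the levels was not tested.

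Between the genotypes, no member of the interferon list passed the test. Of 36 tested members, 0 were higher and 0 were lower in S1KO by edgeR's quasi-likelihood test with Benjamini-Hochberg adjustment over all 15378 genes, which called 0.787% of all genes higher and 0.15% lower. At an unadjusted p under 0.05 there were 7 members, against 19.5% of all genes tested, so the share among the members was near the background. DESeq2 called IFITM1 and IFITM3 lower and no member higher, where it called 3.27% of all genes lower and 4.22% higher. The median log2 difference of S1KO from WT was -0.51 over the members and -0.016 over all genes tested, and 28 of the 36 members lay below 0.

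The WT libraries lay further apart than the genotypes did. The median size of the log2 difference was 1.14 between WT 2 and WT 1, 0.29 between the S1KO libraries and 0.45 between the genotype means, against 0.31, 0.26 and 0.34 over all genes tested. WT 2 had the highest level of the 4 libraries for 29 of 36 members (27.1% of all genes), and WT 1 had the lowest level for 22 (26.7% of all genes). WT 2 was above WT 1 for 33 members (51.7% of all genes). WT 2 was more than 2-fold above WT 1 for 21 members (6.64% of all genes), while 0 members were more than 2-fold higher in WT 1 (6.17%). The WT libraries stood further apart than the genotype means for 27 members (48.1% of all genes), and the S1KO libraries did so for 13 (41.4%). Added over the 38 members, the level was 793 CPM in WT 1, 1225 in WT 2, 864 in S1KO 1 and 814 in S1KO 2. WT 1 is also the library with the mesenchymal markers at 3514 CPM, whose part in this gap was not tested.

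**Figure D1:**
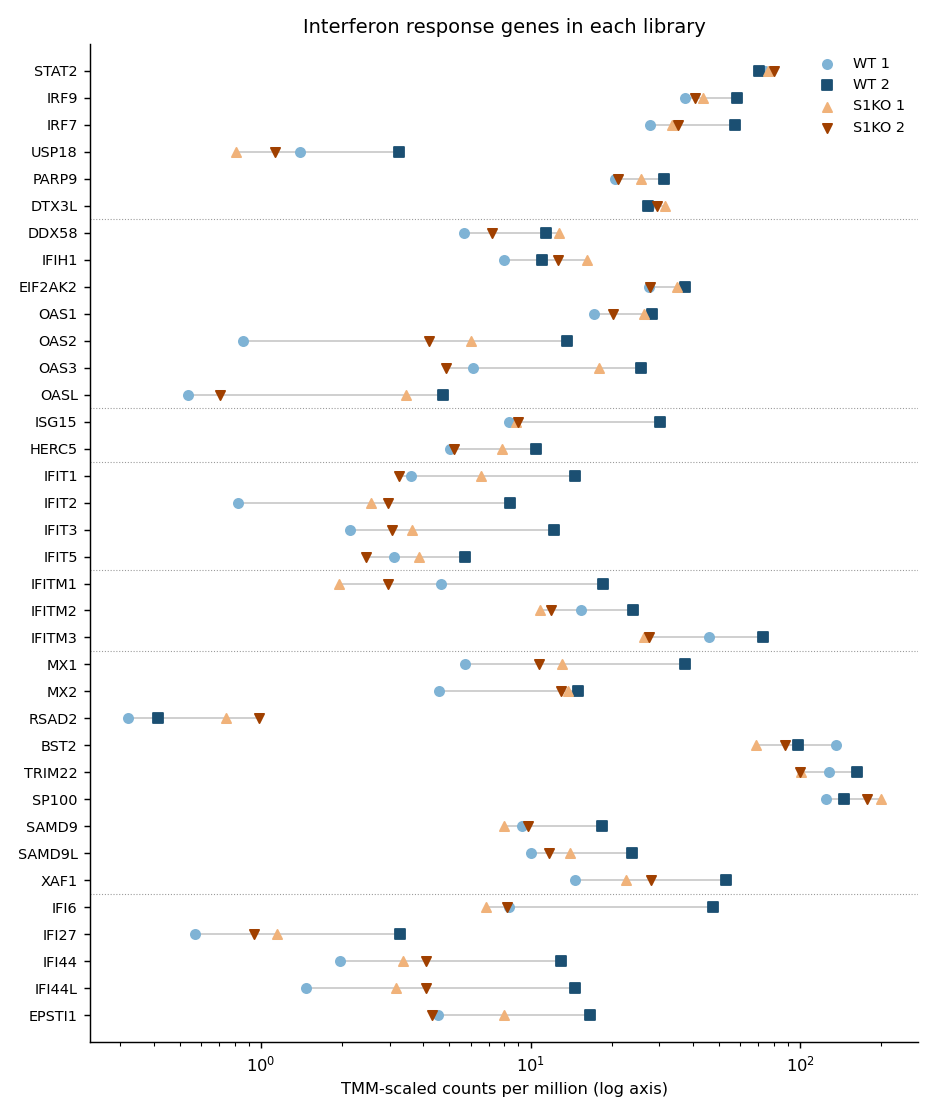
Level of each tested interferon response gene in the 4 libraries, as TMM-scaled CPM on a log axis; each point is 1 library, grey lines span the 4 libraries and dotted lines separate the roles. The WT 2 squares lie furthest right for 29 of 36 genes and the WT 1 circles furthest left for 22.

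Set against each WT library on its own, the S1KO libraries gave opposite pictures on TMM-scaled CPM. Both S1KO libraries lay between WT 1 and WT 2 for 18 of 36 members (6.7% of all genes). Their mean was above WT 1 for 28 members (50.6% of all genes), with a median log2 difference of 0.40, and below WT 2 for 31 (48.6%), with a median of -1.06. It was more than 2-fold below WT 2 for 19 members (6.68% of all genes) and more than 2-fold above WT 2 for RSAD2 alone (9.96%). It was more than 2-fold above WT 1 for 7 members (11.2% of all genes) and more than 2-fold below it for 0 (7.23%). Both comparisons use the same S1KO libraries. On TPM, both S1KO libraries lay under both WT libraries for 23 members (71% of all genes) and over both for 0 (4.29%). The reading against WT 1 thus depended on the scaling.

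With WT 1 left out, edgeR called 20 members lower in S1KO and 0 higher, against 6.95% and 6.5% of all genes. With WT 2 left out it called 4 higher, OAS2, MX1, MX2 and XAF1, and 2 lower, IFITM3 and BST2, against 6.61% and 6.67% of all genes. The median of the members was -1.06 in the fit without WT 1 and 0.39 in the fit without WT 2, so its sign turned with the control library used. In both fits the lone WT library is assumed to vary as the S1KO libraries do, and the adjusted p-values have no replicate check on the WT side. IFITM3 was lower in both fits.

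**Figure D2:**
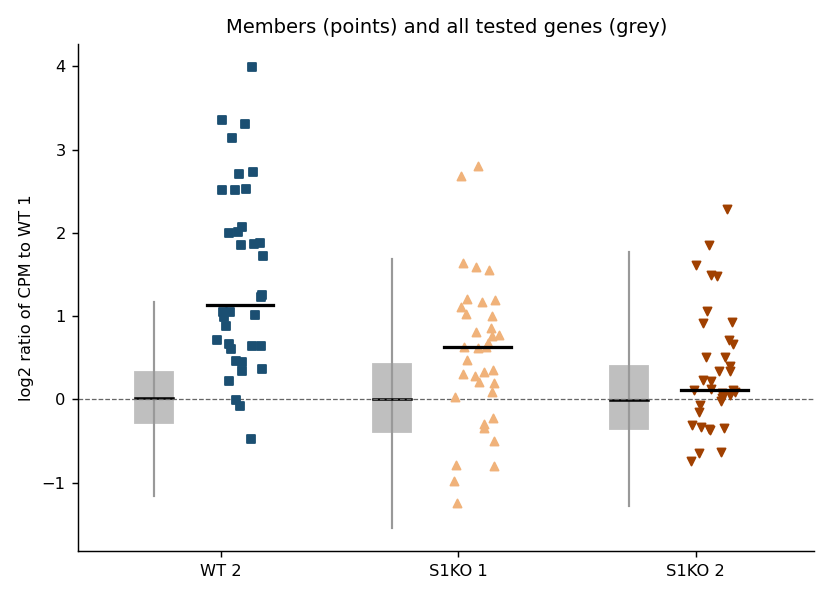
Log2 ratio of the level in WT 2, S1KO 1 and S1KO 2 to that in WT 1 for the 36 tested interferon genes (points, with the median as a black bar) beside all 15378 tested genes (grey box from the first to the third quartile, whiskers from the 5th to the 95th percentile). The medians of the interferon genes are 1.14, 0.62 and 0.12, and the grey boxes centre near 0.

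None of the 6 members that carry or control the signal passed the test between genotypes. STAT2 and IRF9 are subunits of ISGF3. STAT2 (chromosome 12, 56341597 to 56360155, minus strand) was at 74.1 CPM in WT 1, 70.2 in WT 2, 75.8 in S1KO 1 and 80.0 in S1KO 2. Both S1KO libraries lay just above both WT libraries in this gene sum. Its protein-coding transcript STAT2-201 was at 15.71 CPM in WT 1, 16.02 in WT 2, 35.77 in S1KO 1 and 27.85 in S1KO 2. STAT2-207, annotated as a processed transcript, was at 48.69, 46.56, 37.43 and 47.94 CPM in the same order. These transcript levels are estimates and were not tested. IRF9 (chromosome 14, 24161053 to 24166565, plus strand) was at 37.5 CPM in WT 1, 58.4 in WT 2, 43.5 in S1KO 1 and 40.8 in S1KO 2. Both S1KO values of IRF9 lay between the WT values, and its log2 difference was -0.19 (SE 0.24, edgeR adjusted p = 0.71). IRF9 and IRF7 each have copies on alternate contigs among the deposited transcripts, which were added, and these held 50% of the IRF9 counts in each library and 84.1% to 91.1% of the IRF7 counts.

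IRF7, the factor that amplifies interferon alpha production, was at 27.6 CPM in WT 1, 57.2 in WT 2, 33.6 in S1KO 1 and 35.1 in S1KO 2. WT 2 stood apart and the other 3 libraries lay close together. USP18, the protease that removes ISG15 and also damps the receptor, was low in every library, at 1.39, 3.26, 0.809 and 1.13 CPM in the same order. Both S1KO values of USP18 were under the WT values, with a log2 difference of -1.25 (SE 0.59, edgeR adjusted p = 0.31). PARP9 and DTX3L, neighbours on chromosome 3 whose proteins act as a pair, ranged over 20.5 to 31.1 CPM and 27.3 to 31.5 CPM.

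For the sensors and the 2-5A enzymes WT 2 was above WT 1 in all 7 genes (51.7% of all genes), from 1.36-fold for EIF2AK2 to 15.9-fold for OAS2. DDX58, which encodes the RNA helicase RIG-I, was at 5.68, 11.4, 12.7 and 7.19 CPM in WT 1, WT 2, S1KO 1 and S1KO 2. IFIH1, which encodes the related sensor MDA5, was at 7.97, 11.0, 16.2 and 12.6 CPM, with both S1KO libraries above both WT libraries, a log2 difference of 0.60 (SE 0.27, edgeR adjusted p = 0.29). EIF2AK2, the kinase PKR that halts translation on double-stranded RNA, ranged from 27.5 to 37.5 CPM with the groups overlapping.

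OAS1, OAS2 and OAS3 lie side by side on chromosome 12 and make 2-5A, the messenger that activates RNase L; OASL is a relative that lacks this activity. OAS1 was at 17.2, 28.1, 26.4 and 20.2 CPM in WT 1, WT 2, S1KO 1 and S1KO 2. OAS2 (chromosome 12, 112978395 to 113011723, plus strand) was at 0.858 CPM in WT 1, 13.7 in WT 2, 5.997 in S1KO 1 and 4.18 in S1KO 2. WT 2 was 15.9-fold above WT 1, both S1KO libraries lay in the gap between them, and the log2 difference between genotypes was -0.52 (SE 1.03, edgeR adjusted p = 0.82).

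The value of OAS2 turned with the control. In the fit without WT 2 it was 2.56 on the log2 scale, and in the fit without WT 1 it was -1.43, each with a lone WT library. OAS2 in WT 1 rests on 23.9 estimated counts.

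OAS3 (chromosome 12, 112938352 to 112973249, plus strand) was at 6.11 CPM in WT 1, 25.8 in WT 2, 17.9 in S1KO 1 and 4.84 in S1KO 2. OASL (chromosome 12, 121019111 to 121039242, minus strand) was at 0.536, 4.72, 3.44 and 0.705 CPM in the same order, on 15.1 counts in WT 1 and in S1KO 2. In both genes WT 2 and S1KO 1 were high while WT 1 and S1KO 2 were low, so the groups overlapped. S1KO 1 was 3.70-fold above S1KO 2 for OAS3 and 4.87-fold for OASL. The log2 difference between genotypes was -0.50 for OAS3 (SE 0.78, edgeR adjusted p = 0.77).

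For OASL that difference was -0.37 (SE 1.08, edgeR adjusted p = 0.88). Only IFIT1 joined these genes in having S1KO libraries more than 2-fold apart, 3 members in all (9.56% of all genes).

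ISG15 encodes the ubiquitin-like protein that HERC5 attaches to new proteins. ISG15 (chromosome 1, 1001138 to 1014540, plus strand) was at 8.29 CPM in WT 1, 30.2 in WT 2, 8.83 in S1KO 1 and 8.98 in S1KO 2. WT 2 stood alone, 3.64-fold above WT 1, and the S1KO libraries were at the level of WT 1. Its log2 difference between genotypes was -1.11 (SE 0.56, edgeR adjusted p = 0.33). That difference was 0.10 against WT 1 alone and -1.76 against WT 2 alone, each from a fit with a lone WT library. HERC5 was at 5.04, 10.4, 7.82 and 5.22 CPM, with the groups overlapping.

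The IFIT genes, a cluster on chromosome 10 whose proteins bind foreign RNA ends and block translation, were all highest in WT 2. IFIT1 (89392546 to 89406486, plus strand) was at 3.61 CPM in WT 1, 14.6 in WT 2, 6.54 in S1KO 1 and 3.24 in S1KO 2. Its log2 difference between genotypes was -0.91 (SE 0.68, edgeR adjusted p = 0.51), with S1KO 1 at 2.02 times S1KO 2. IFIT2 (89283694 to 89309276, plus strand) was at 0.822, 8.40, 2.56 and 2.96 CPM, so that WT 2 was 10.2-fold above WT 1 and both S1KO libraries lay between them.

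The log2 difference of IFIT2 was -0.74 (SE 0.93, edgeR adjusted p = 0.71). IFIT3 was at 2.15, 12.2, 3.64 and 3.06 CPM and IFIT5 at 3.11, 5.71, 3.84 and 2.44 CPM in WT 1, WT 2, S1KO 1 and S1KO 2. Without WT 1 the log2 differences of IFIT1, IFIT2, IFIT3 and IFIT5 were -1.60, -1.60, -1.87 and -0.87. Without WT 2 they were 0.42, 1.74, 0.64 and 0.005, and each of these fits rests on a lone WT library. IFIT1, IFIT2 and IFIT3 overlap the lysosomal lipase gene LIPA on the opposite strand in the annotation, and the sources used here do not say whether counting used strand. In the same annotation 21 of the 38 members, among them ISG15, IFI6 and MX1, overlap a gene on the opposite strand.

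All 3 IFITM genes were lower in each S1KO library than in either WT library, as were 25.8% of all genes. They encode small membrane proteins that stop enveloped viruses from fusing, lie next to each other on chromosome 11 and are close copies, so the split of reads among them is uncertain; the annotated IFITM2 locus also spans IFITM1. IFITM3 (319669 to 327537, minus strand) was at 45.8 CPM in WT 1, 72.9 in WT 2, 26.3 in S1KO 1 and 27.5 in S1KO 2, a mean of 59.3 ± 19.1 (SD, n = 2) for WT and 26.9 ± 0.78 (SD, n = 2) for S1KO. The S1KO libraries were nearly equal, and under either WT library. Its log2 difference was -1.14 (SE 0.25, edgeR adjusted p = 0.094), the smallest adjusted p among the members, and DESeq2 put it at an adjusted p of 0.0024.

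The log2 difference of IFITM3 was -1.44 without WT 1 and -0.77 without WT 2, each from a fit with a lone WT library. With the replicate number as a block IFITM3 was not called, in a fit that called 0 of all genes. IFITM1 (313506 to 315272, plus strand) was at 4.65 CPM in WT 1, 18.5 in WT 2, 1.95 in S1KO 1 and 2.96 in S1KO 2. Both S1KO libraries lay below WT 1, and WT 2 was 3.99-fold above WT 1. Its log2 difference was -2.23 (SE 0.66, edgeR adjusted p = 0.16, DESeq2 adjusted p = 0.013). It was -2.89 without WT 1 and -0.91 without WT 2, again with a lone WT library in each fit.

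IFITM2 (307631 to 315272, plus strand) was at 15.4 CPM in WT 1, 24.0 in WT 2, 10.8 in S1KO 1 and 11.9 in S1KO 2. The genotypes did not overlap, and the log2 difference was -0.79 (SE 0.27, edgeR adjusted p = 0.20, DESeq2 adjusted p = 0.14). On the scale per length, IFITM3 had a mean of 136 TPM over the libraries, IFITM2 46.1 TPM and IFITM1 24.2 TPM. Over all members, the S1KO libraries were both under the WT pair for 7 and both over it for 5, against 25.8% and 26% of all genes, and the groups overlapped for 24.

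The other antiviral effectors were mixed. BST2, or tetherin, which holds budding virus at the cell surface, was the member with the highest mean TPM, 148. BST2 (chromosome 19, 17402939 to 17405648, minus strand) was at 136 CPM in WT 1, 97.7 in WT 2, 68.8 in S1KO 1 and 87.9 in S1KO 2, and it was the 1 tested member that was highest in WT 1 (25.3% of all genes). Its log2 difference was -0.57 (SE 0.22, edgeR adjusted p = 0.23). It was -0.79 in the fit without WT 2 and -0.32 in the fit without WT 1, each with a lone WT library.

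TRIM22, a ubiquitin ligase that restricts retroviruses, is on chromosome 11 (5689689 to 5737089, plus strand). Its level was 128 CPM in WT 1, 162 in WT 2, 100.5 in S1KO 1 and 100 in S1KO 2. The S1KO libraries were almost equal and below both WT libraries, with a log2 difference of -0.53 (SE 0.18, edgeR adjusted p = 0.19). SP100, the nuclear body protein that silences viral DNA, is on chromosome 2 (230415942 to 230544090, plus strand) and was at 125 CPM in WT 1, 145 in WT 2, 199 in S1KO 1 and 177 in S1KO 2.

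SP100 ran the other way from most of the list, with both S1KO libraries above both WT libraries and a log2 difference of 0.48 (SE 0.17, edgeR adjusted p = 0.21). On TPM it was at 110, 128, 71.0 and 117, where S1KO no longer lay above WT, and limma on log2(TPM + 1) gave -0.38. TPM is set against a total that includes the mitochondrial transcripts, and with it the median of all genes tested moved to -0.78.

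The dynamin-like GTPases MX1 and MX2, neighbours on chromosome 21, were both lowest in WT 1 by CPM. MX1 was at 5.72 CPM in WT 1, 37.3 in WT 2, 13.1 in S1KO 1 and 10.8 in S1KO 2, with a log2 difference between genotypes of -0.85 (SE 0.75, edgeR adjusted p = 0.58). This difference was 1.06 without WT 2 and -1.65 without WT 1, each from a fit with a lone WT library. MX2 was at 4.58, 15.04, 13.8 and 12.9 CPM, so that WT 1 was the low library and the other 3 lay close together. On TPM it was at 10.3, 12.3, 5.78 and 10.4 in the same order, where S1KO 1 was the low library. Retained-intron transcripts held 67.5%, 43.0%, 57.0% and 52.1% of MX2 counts.

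The log2 difference of MX2 was 1.54 without WT 2 and -0.17 without WT 1, each from a fit with a lone WT library. XAF1, which promotes apoptosis under interferon, was at 14.6 CPM in WT 1, 53.0 in WT 2, 22.6 in S1KO 1 and 27.9 in S1KO 2. SAMD9 and SAMD9L, adjacent genes on chromosome 7 for restriction factors of poxviruses, were at 18.4 and 23.9 CPM in WT 2 and between 7.95 and 13.9 CPM in the other libraries. RSAD2, which encodes viperin, was near the limit of detection, at 0.322, 0.415, 0.741 and 0.987 CPM on 9.09 to 21.2 counts.

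CMPK2, the nucleotide kinase gene next to RSAD2, had 5 counts in WT 1 and 0 in the other libraries, where a count of 0 allows up to 0.0958 CPM in WT 2, 0.202 in S1KO 1 and 0.141 in S1KO 2. CXCL10, the member that encodes a secreted chemokine, had 5, 5, 0 and 3 counts in WT 1, WT 2, S1KO 1 and S1KO 2. No fold change is given for either gene, since the values are at or near the floor of 3 counts, a limit that covers counting error only.

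The IFI genes and EPSTI1, many of them used as blood signatures of interferon exposure, showed the pattern in each of their 5 members: WT 2 was highest and more than 2-fold above WT 1. IFI6 (chromosome 1, 27666061 to 27672218, minus strand), a mitochondrial and endoplasmic reticulum protein that blocks apoptosis, was at 8.33 CPM in WT 1, 47.5 in WT 2, 6.81 in S1KO 1 and 8.18 in S1KO 2. WT 2 was 5.70-fold above WT 1, and the S1KO libraries lay just under WT 1. The log2 difference of IFI6 between genotypes was -1.89 (SE 0.73, edgeR adjusted p = 0.23). It was -2.66 without WT 1 (edgeR adjusted p = 4.3e-18) and -0.15 without WT 2 (edgeR adjusted p = 0.86).

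IFI44L (chromosome 1, 78619922 to 78646145, plus strand) was at 1.47 CPM in WT 1, 14.6 in WT 2, 3.17 in S1KO 1 and 4.09 in S1KO 2. WT 2 was 9.93-fold above WT 1 with both S1KO libraries between them, and the log2 difference was -1.14 (SE 0.91, edgeR adjusted p = 0.54). Its neighbour IFI44 was at 1.97, 13.02, 3.37 and 4.09 CPM. EPSTI1 (chromosome 13, 42886388 to 42992271, minus strand) was at 4.54, 16.7, 7.95 and 4.32 CPM, so that S1KO 1 lay between the WT libraries and S1KO 2 at the level of WT 1.

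The log2 difference of EPSTI1 was -0.80 (SE 0.62, edgeR adjusted p = 0.53). IFI27 was at 0.572, 3.29, 1.15 and 0.940 CPM, on 16.01 to 103 counts. Transcripts annotated as retaining an intron on the primary assembly held 49.7% of the IFI27 counts in WT 1, 14.6% in WT 2, 42.7% in S1KO 1 and 40.7% in S1KO 2, and copies on alternate contigs held 43.2% to 50%. In WT 1 protein-coding transcripts on the primary assembly held 0.30% of IFI27 counts, against 41.6% in WT 2.

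The transcripts behind the gene sums differed between libraries for MX1 and SP100, examples chosen after their values were seen. MX1-202, a protein-coding transcript of 2776 nt, was at 2.41 CPM in WT 1, 31.2 in WT 2, 6.402 in S1KO 1 and 5.26 in S1KO 2. MX1-214, a retained-intron transcript of 388 nt, was at 1.71, 1.18, 4.18 and 3.06 CPM. Retained-intron transcripts together held 46.8% of MX1 counts in WT 1, 10.5% in WT 2, 41.3% in S1KO 1 and 51.2% in S1KO 2. The gap between WT 2 and the other libraries was thus wider in the coding transcript than in the gene sum.

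For SP100 the transcript SP100-203, of 2198 nt, was at 2.52 CPM in WT 1, 3.94 in WT 2, 59.6 in S1KO 1 and 29.9 in S1KO 2. The longer SP100-202 was at 66.0, 73.6, 66.7 and 80.6 CPM and SP100-204 at 23.4, 31.6, 19.5 and 13.2 CPM. SP100-203 thus held 2.02% and 2.71% of SP100 counts in WT and 29.9% and 16.9% in S1KO. No test was run on transcripts, and kallisto divides reads among transcripts that share sequence, so these values are estimates.

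**Figure D3:**
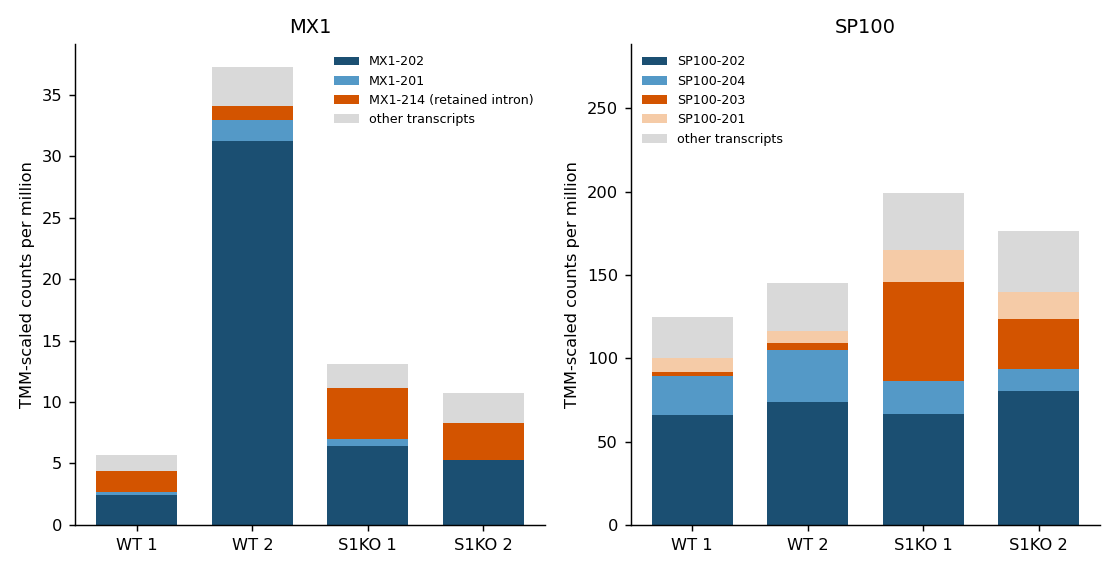
Make-up of the MX1 and SP100 levels by transcript in each library, as TMM-scaled CPM stacked to the gene sum (bars start at 0; 1 library per bar). MX1-202 makes 31.2 of the 37.3 CPM in WT 2, and SP100-203 is at 59.6 and 29.9 CPM in the S1KO libraries against 2.52 and 3.94 in WT.

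The other genes of the pathway, 108 in 6 lists, gave 83 that could be tested. By edgeR's quasi-likelihood test with Benjamini-Hochberg adjustment 0 of the 83 were called, where 0.787% of all genes were called higher and 0.15% lower. Of the 83, 15 had an unadjusted p under 0.05, against 19.5% of all genes. DESeq2 called 1 of the 83 higher and 6 lower, where it called 4.22% of all genes higher and 3.27% lower. WT 2 was the highest library for 41 of the 83, against 27.1% of all genes, and the median log2 difference of WT 2 from WT 1 was 0.19. Of the interferon genes themselves, 21 were in the tables and 1 could be tested, IFNL1, on 14 counts in WT 1, 18 in WT 2, 12 in S1KO 1 and 11 in S1KO 2. IFNB1 had 2 counts in WT 2 and 0 in the other libraries, and IFNW1 had 4, 10, 1 and 7. Of 7 markers of plasmacytoid dendritic cells, which are known for making interferon, 4 to 6 were above 3 counts in a library and GZMB was at 0 in all 4. Their summed level was 298 and 240 CPM in WT and 266 and 291 CPM in S1KO. TCF4, which other cells also express, made up 237, 182, 198 and 214 CPM of these sums in WT 1, WT 2, S1KO 1 and S1KO 2, and IL3RA was at 12.4, 22.5, 15.7 and 25.8 CPM.

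Of the 15 receptor, kinase and feedback genes, 0 were called by edgeR, 3 had an unadjusted p under 0.05 (19.5% of all genes) and DESeq2 called 1 lower (3.27% of all genes), IFNGR1. IFNAR1 was at 35.7, 28, 34.2 and 31.4 CPM in WT 1, WT 2, S1KO 1 and S1KO 2, with the groups overlapping. IFNAR2 was at 46.8, 48.5, 34.6 and 36.2 CPM, with both S1KO libraries below both WT libraries and a log2 difference of -0.43 (SE 0.16, edgeR adjusted p = 0.22). These receptor chains are given for their role, outside the naming rule. The kinase JAK1 was at 56.6, 64.7, 94.9 and 82.2 CPM, higher in both S1KO libraries, at 0.54 on the log2 scale (SE 0.17, edgeR adjusted p = 0.17).

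TYK2, the kinase bound to IFNAR1, was at 253, 377, 221 and 261 CPM, highest in WT 2, and so was PTPN6, the phosphatase SHP1 that damps cytokine receptors, at 383, 567, 461 and 473 CPM. IFNGR1, the ligand-binding chain of the interferon gamma receptor, was at 191, 183, 104 and 124 CPM, a log2 difference of -0.72 (SE 0.17, edgeR adjusted p = 0.10, DESeq2 adjusted p = 0.0052). SOCS3, a feedback inhibitor of cytokine receptors named after its value was seen, was at 4.15, 24.1, 8.29 and 6.91 CPM, with WT 2 again the high library.

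Of the 18 tested genes for nucleic acid sensing and induction, 0 were called by edgeR, 5 had an unadjusted p under 0.05 (19.5% of all genes) and DESeq2 called 2 lower (3.27% of all genes), MYD88 and STING1. MYD88, the adaptor of most Toll-like receptors, was at 16.2 CPM in WT 1, 30.6 in WT 2, 7.14 in S1KO 1 and 4.56 in S1KO 2. The S1KO levels did not overlap those of WT, with a log2 difference of -2.005 (SE 0.39, edgeR adjusted p = 0.080, DESeq2 adjusted p = 9.4e-05). STING1, the adaptor for cytosolic DNA, was at 30.1, 21.7, 5.59 and 14.7 CPM, a log2 difference of -1.34 (SE 0.44, edgeR adjusted p = 0.18, DESeq2 adjusted p = 0.043). TRAF3, which links these adaptors to interferon induction, was at 28.6, 24.1, 41.6 and 36.8 CPM. The factors IRF3 and IRF5, which switch on interferon genes, ranged from 96.7 to 112 CPM and from 132 to 178 CPM.

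Of 8 genes that clear nucleic acids, 0 were called by edgeR, 3 had an unadjusted p under 0.05 (19.5% of all genes) and DESeq2 called 1 lower (3.27% of all genes), DNASE2. DNASE2, the lysosomal DNase, was at 49.6, 54.5, 23.9 and 33.1 CPM in WT 1, WT 2, S1KO 1 and S1KO 2, a log2 difference of -0.87 (SE 0.21, edgeR adjusted p = 0.11, DESeq2 adjusted p = 0.014). RNASEH2B, a subunit of the nuclease for RNA-DNA hybrids, was at 27.7, 28.99, 38.5 and 40.3 CPM, with both S1KO libraries above both WT libraries. SAMHD1, which breaks down deoxynucleotides, stood in the same order, at 397, 451, 614 and 522 CPM, while the lysosomal RNase gene RNASET2 was at 524, 397, 298 and 434 CPM with the groups overlapping.

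Among the 31 further interferon-stimulated genes that could be tested, 0 were called by edgeR, 3 had an unadjusted p under 0.05 (19.5% of all genes), and DESeq2 called LGALS3BP and LY6E lower (3.27% of all genes) and SP110 higher (4.22%). LGALS3BP, a secreted glycoprotein, was at 15.4, 23.8, 8.02 and 6.72 CPM in WT 1, WT 2, S1KO 1 and S1KO 2, a log2 difference of -1.41 (SE 0.29, edgeR adjusted p = 0.086). SP110, a relative of SP100, was at 34.0, 40.7, 69.9 and 55.5 CPM, a log2 difference of 0.75 (SE 0.20, edgeR adjusted p = 0.12). As with SP100, both S1KO libraries lay above both WT libraries. RNF213, a large ubiquitin ligase, was at 150, 258, 255 and 214 CPM and the scramblase PLSCR1 at 29.2, 50.4, 55.8 and 42.6 CPM, so that WT 1 was the low library in both.

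SIGLEC1 and LY6E, named after their values were seen, followed the members in being high in WT 2. SIGLEC1, a sialic acid receptor used as a monocyte marker of interferon, was at 3.65, 30.9, 9.10 and 13.9 CPM, and LY6E at 8.36, 29.1, 4.85 and 6.16 CPM. In 10 genes more closely tied to interferon gamma, 0 were called by edgeR, 1 had an unadjusted p under 0.05 (19.5% of all genes) and DESeq2 called 0 (4.22% higher and 3.27% lower over all genes). The guanylate-binding proteins GBP2 and GBP4 were low, at 0.0715, 0.287, 1.28 and 1.83 CPM and at 3.32, 4.09, 5.66 and 6.77 CPM, with both S1KO libraries above both WT libraries. The WT 1 value of GBP2 lies under the floor of 3 counts, which is 0.107 CPM in that library. IRF8, a myeloid factor, ranged from 192 to 236 CPM. The class II regulator CIITA was at 136, 362, 219 and 231 CPM, with both S1KO libraries between the WT libraries.

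**Figure D4:**
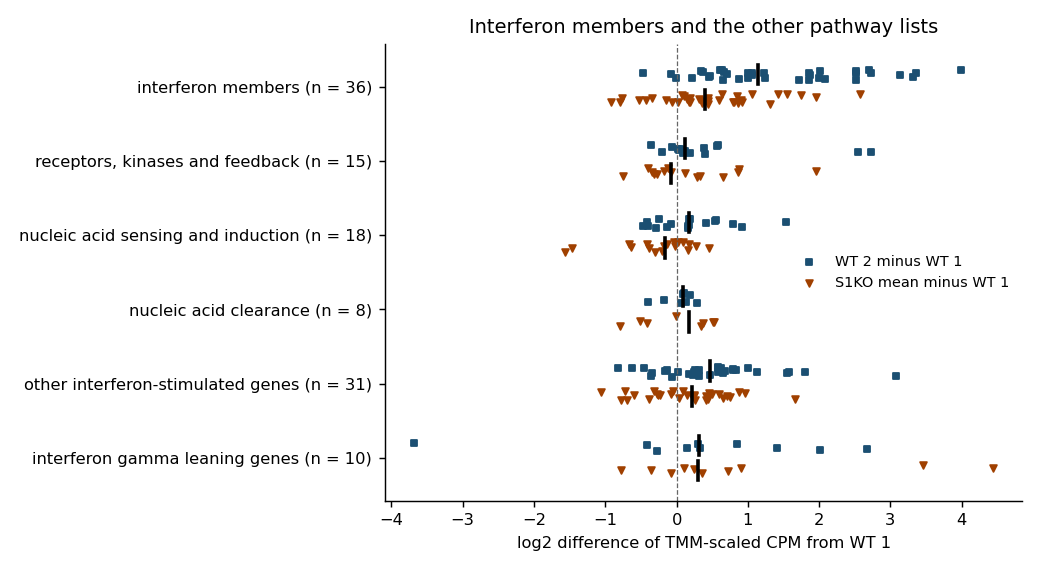
Log2 difference of WT 2 (squares) and of the S1KO mean (triangles) from WT 1 for the tested interferon members and 5 lists of other pathway genes; each point is a gene and black bars are medians. The members have medians of 1.14 and 0.40, and the nucleic acid sensing list has 0.17 and -0.16.

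The count of members called depended on the setting. It was 0 in 8 of the 14 other settings run, and 2 with DESeq2, both lower (3.27% of all genes). The largest share of all genes called in those 8 settings was 1.79%, with the stricter filter. With the replicate number as a block 0 of all genes were called, so no member could be. The same held with S1KO 1 or S1KO 2 left out, each a fit with a lone S1KO library. The fits with a WT library left out are given above. With no filter on low counts 3 members were called, all lower (3.45% of all genes, with 2.6% higher). With limma on log2(TPM + 1), 13 members were called lower (17.9% of all genes), and with log2(TPM + 0.1) there were 9 (16.4%). In the former the median was -0.92 over the members and -0.78 over all genes tested.

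**Figure D5:**
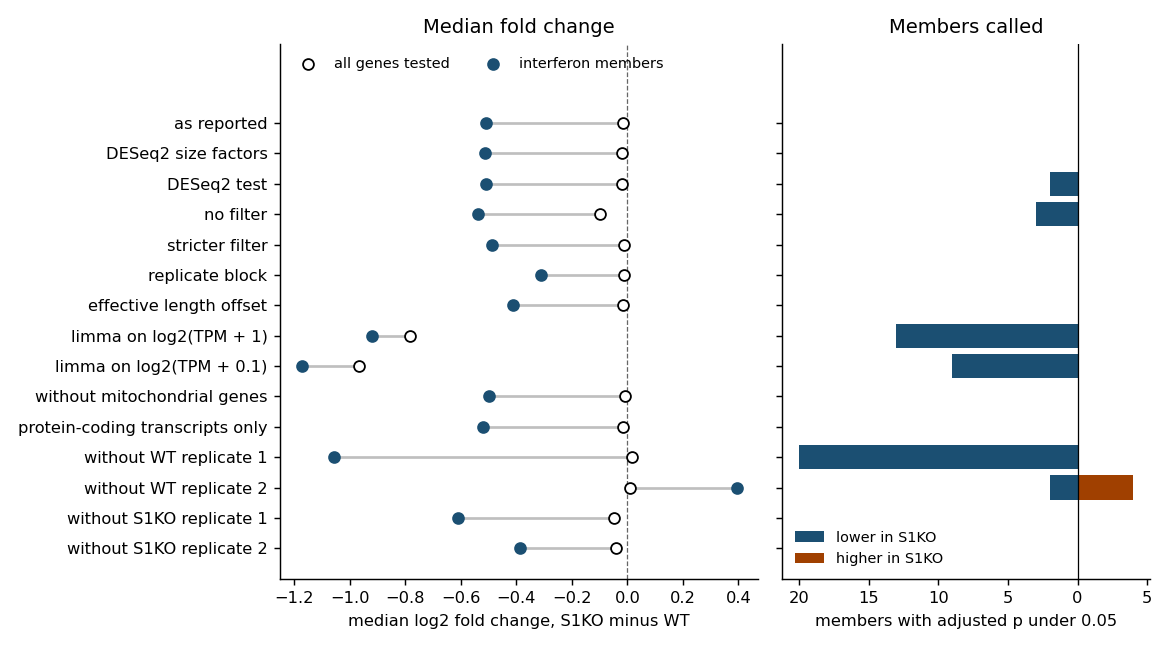
Left, median log2 difference of S1KO from WT over the tested interferon genes (filled) and over all tested genes (open) under each setting; right, number of interferon genes with an adjusted p under 0.05, lower to the left and higher to the right. Leaving out WT 1 gives 20 lower, and leaving out WT 2 turns the median to 0.39 with 4 higher and 2 lower.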

How the data were processed

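RNA was measured in 4 libraries of iMGL, 2 labelled WT and 2 labelled S1KO, from poly-A selected RNA read as pairs of 150 bp, per the labels' protocols. Per the submitters' processing notes, the authors used kallisto and hg38; its version, the transcript set and any strand setting were not given in the sources used here. Deposited per transcript, per the file headers, are the estimated count, the TPM, and the length and effective length, with no pooling. Kallisto divides a read among transcripts it fits, so an estimated count need not be whole, and TPM is relative to a total that includes mitochondrial transcripts.

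Transcripts were summed to genes with GENCODE 29 (169797 of 188753 by identifier, 15521 by symbol; 3435 without a name, 0.323% to 0.643% of counts, were left out). Sums were rounded, filtered with filterByExpr (15378 of 35585 genes kept), scaled by TMM (factors 0.6535 to 1.313) and tested with edgeR 4.0.16 (glmQLFit, glmQLFTest, two-sided, R 4.3.3), genotype as the only term, Benjamini-Hochberg threshold 0.05. Total counts were 21516813 to 25927881, so 3 counts, the limit a count of 0 allows, came to 0.0958 to 0.202 CPM. Groups came from the genotype label and each library was 1 replicate; 44 to 482 tested genes lay over 4-fold apart in each pair, so no library was a copy of another.

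The members and gene lists were chosen with earlier results of these data known. Members named with full statistics are the 6 of smallest p, the 6 of highest mean TPM, and the 4 with the largest ratio between the WT libraries and between the S1KO libraries at a mean TPM of at least 1; of each pathway list, the 2 of smallest p and the 2 of highest mean TPM are named. Other named genes, among them USP18, IFIH1, ISG15 and MX1, which are given with full statistics too, were picked after their values were seen. STING1 is TMEM173 in the tables. The alternatives were DESeq2 1.42.0 as the test or for size factors, no filter, a stricter filter (mean TPM of 1 or more, and 1 CPM or more in 2 libraries), a block for the replicate number, an effective length offset, limma 3.58.1 on log2(TPM + 1) and log2(TPM + 0.1), mitochondrial genes left out, protein-coding transcripts only, and each library left out. Fits were tested on simulated data. A further gene of the pathway lists is left out of the text.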

Additional observations from a re-analysis of the deposited data

How the results depend on the processing

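The median of the members stayed below 0 in 13 of 14 other settings. It was -1.17 with limma on log2(TPM + 0.1), and leaving out a library gave -1.06 to 0.39, with the sign turned without WT 2. Leaving out a library moved the log2 difference over -1.46 to 0.42 for EPSTI1, -1.99 to 1.31 for IFI44L, -1.60 to 0.42 for IFIT1, -1.60 to 1.74 for IFIT2, -0.47 to 0.17 for IRF9, -1.43 to 2.56 for OAS2, -1.72 to 0.88 for OAS3 and -1.90 to 1.91 for OASL. The highest values were without WT 2, where each of these 8 genes turned; without S1KO 2 OAS3 (0.16) and OASL (0.37) turned too. It turned to 0.30 for IRF9 with protein-coding transcripts, to 0.30 for OAS2 with the length offset, and for SP100 to -0.38 with limma on log2(TPM + 0.1) and on log2(TPM + 1). The cause was not tested.

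Members called in S1KO numbered 2 with DESeq2, 3 with no filter, 13 with limma on log2(TPM + 1) and 9 on log2(TPM + 0.1), all lower, against 0; leaving out a library gave 0 to 20 in total and 0 to 20 lower. The S1KO pair was under the WT pair for 23 members on TPM (either pseudocount) and over it for 0, against 71% and 4.29% of all genes. Leaving out a library gave 14 to 35 members whose groups did not overlap, 7 to 30 lower and 5 to 24 higher, against 72.1% to 78.8% of all genes, 37.2% to 39.3% lower and 35% to 39.5% higher. Other pathway genes called numbered 7 with DESeq2 (7.49% of all genes), 8 with no filter (6.05%), 19 with limma on log2(TPM + 1) (18.8%) and 18 on log2(TPM + 0.1) (17.2%), and 0 to 19 with a library left out (0% to 13.5%).

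Over all genes, 144 were called, 121 of them higher and 23 lower. DESeq2 called 1152 (649 higher, 503 lower), no filter 1362 (585 and 777), the stricter filter 223 (49 lower), protein-coding transcripts 21 (18 and 3), limma 2893 on log2(TPM + 1) (2760 lower) and 2638 on log2(TPM + 0.1) (2518 lower). Leaving out a library gave 0 to 2069 (0 to 1016 higher, 0 to 1069 lower).

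With the replicate number as a block 0 genes and 0 members were called, the median of the members was -0.31 and OAS2 turned to 0.41. The deviations of same-numbered libraries had a correlation of 0.0234 over 15378 genes. This value cannot show whether same-numbered libraries shared a culture or a batch, since no label says what the number stands for. The S1KO libraries hold fewer counts outside mitochondrial transcripts.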
